A study of Mus musculus with 15 samples.

Results

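Pttg1 and Rfxap are mouse genes whose promoters read lower in control islets after partial pancreatectomy than before it. In islets made to delete Arid1a the same promoters read higher after the operation on the deposited scale, though Rfxap read lower relative to the median peak. Their peaks were taken by gene name from all 4 deposited tables of chromatin accessibility. They came to 4 peaks, 3 annotated to Pttg1 and 1 to Rfxap, of 13858 separate regions in the series. The genes were chosen by their measured values in 2 comparisons, that of genotypes after surgery and that of control islets after and before it, which share the control libraries after surgery. The values of both are given as a description, and p-values and FDRs quoted for them are the authors' own.

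Accessibility had been measured by ATAC-seq, in which the transposase Tn5 cuts and tags open chromatin, in islets of 15 male mice aged 3 months. Groups were βKO after partial pancreatectomy (PPx, n = 4), control after PPx (n = 4), βKO before PPx (n = 3) and control before PPx (n = 4). All mice were homozygous for floxed Arid1a and carried MIP-rtTA, an activator made under an insulin promoter that works only with doxycycline. It switches on Cre in βKO mice, which had TRE-Cre in addition. Drinking water held doxycycline at 1 g/L for 2 weeks, PPx followed 1 week after withdrawal, and the later islets were taken 6 days after PPx. The driver limits the deletion to β cells, so other islet cells should keep Arid1a, and each library held 40000 cells of the whole islet. In such a mixture, fewer cells with an open site and a less open site in each cell cannot be told apart.

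Pttg1 encodes securin, which holds the protease separase inactive until the anaphase-promoting complex marks securin for destruction. Separase then cleaves cohesin and sister chromatids part. Securin is made in dividing cells, and β cells of adult mice divide rarely unless tissue is lost. Rfxap encodes a subunit of the RFX complex, in which it joins Rfx5 and Rfxank on the promoters of MHC class II genes, where the coactivator Ciita is recruited.

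The Pttg1 promoter peak lay at chr11:43425976-43426576 on GRCm38 in the comparison of genotypes after PPx, within the RefSeq span of the gene. Its centre was 295 bp upstream of the RefSeq start used here, at position 43425981 on the minus strand. That start is not the outermost of the gene, whose RefSeq span reaches upstream to 43427463. The promoter window is shown because its first 256 of 300 bases lie inside this peak. It runs from 250 bases before to 50 after the start, chr11:43425932-43426231 of GRCm38.p6 in RefSeq, on the minus strand, 5′ to 3′, with capitals marking CpG dinucleotides.
Pttg1 promoter: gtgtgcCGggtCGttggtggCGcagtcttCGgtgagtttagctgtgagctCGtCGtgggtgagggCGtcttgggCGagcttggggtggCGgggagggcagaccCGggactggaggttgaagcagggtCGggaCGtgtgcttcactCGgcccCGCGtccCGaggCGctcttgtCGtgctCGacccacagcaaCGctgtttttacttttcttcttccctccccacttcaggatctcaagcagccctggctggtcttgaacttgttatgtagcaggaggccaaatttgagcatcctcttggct
This window held 20 CpG dinucleotides and 60.3% G and C, while the medians of 32841 RefSeq promoter windows of the same length were 7 and 52.7%. At least as many CpG dinucleotides were found in 26.5% of those windows. None of the 13 motifs searched on both strands was in this window, which says nothing of sequence nearer the outermost end. Among all windows, the CCAAT box was held by 37.4%, the GC box GGGCGG by 35.7%, the ETS core CGGAAG by 16.9%, and the RFX core GTTGCC by 12.5%. The cell cycle homology elements occurred in 17.9% (as TTTGAA), 1.56% (as TTCGAA) and 13.2% (as TTTAAA), and the E2F forms TTTCCCGC and TTTGGCGC in 1.07% and 0.515%. TATAAA was in 13.6%, the AP-1 site TGANTCA in 7.81%, the CRE TGACGTCA in 1.79% and the palindromic NRF1 site in 0.971%.

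Rfxap had a single peak, at chr3:54807528-54808128 on GRCm38, a promoter peak whose centre lay 37 bp beyond the end of the RefSeq gene span. The distal Pttg1 peaks were assigned to that gene by the authors' annotation. The nearer, at chr11:43412664-43413264, was centred 13.3 kb from the promoter peak. The farther, at chr11:43403913-43404513, was centred 22.1 kb from it. The RefSeq gene nearest to both was Gm5782, at 1.35 kb and 10.1 kb, with Pttg1 at 6.98 kb and 15.7 kb.

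Most peaks of the series read higher in βKO islets after PPx, by a median log2 change of 0.61 from control islets over 13111 peaks, and βKO islets stood 0.83 higher after PPx than before over 12767. The corresponding medians were 0.00 between genotypes before PPx (7826 peaks) and 0.16 in control islets after PPx relative to before (8070 peaks). Each table has a scale of its own. The same group differed between tables by a median of 0.23 in βKO islets before PPx, 0.18 in control islets before PPx, -0.05 in control islets after PPx and 0.00 in βKO islets after PPx. Of 8 β cell markers 5 had a peak after PPx, including Ins1, Mafa and Nkx6-1, against 1 of 6 acinar, 1 of 4 duct, 2 of 7 leukocyte and 0 of 4 endothelial and stromal markers. The summed level of the β cell list was 217 normalised reads in βKO and 128 in control islets after PPx (11 peaks), and 72.2 in βKO and 73.0 in control islets before PPx (4 peaks). Over time it was 218 after PPx and 107 before in βKO islets (11 peaks), and 74.1 after PPx and 62.9 before in control islets (4 peaks). Sums over different peaks are not comparable with one another. That of the leukocyte list, at peaks of Ptprc and Csf1r, was 27.2 normalised reads in βKO and 17.9 in control islets after PPx. In βKO islets it was 27.6 after PPx and 13.7 before. It had no listed peak in the comparisons of genotypes before PPx and of control islets over time. Its part in the results was not tested. Between genotypes after PPx the median log2 changes of the β cell and leukocyte lists were 0.66 and 0.675, beside 0.61 for all peaks. In βKO islets over time they were 1.08 and 1.12, beside 0.83 for all peaks. The Arid1a exon 9 peak read 4.04 in βKO and 0.40 in control islets after PPx (FDR 0.00201, the authors' deposited table). Before PPx it read 5.49 in βKO and 1.21 in control islets, at an FDR of 0.00187. In βKO islets over time it read 4.04 after PPx and 5.26 before, at an FDR of 0.0584. These levels do not measure whether the gene was deleted.

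Levels are the authors' group values, the log2 of mean normalised reads, and changes are differences of these. The FDR is the adjusted p-value given by the authors, and a peak passes where it is under 0.05. Some weak peaks stood at the ceiling of the FDR even at a small p. Between genotypes after PPx, the Cdc37l1 promoter stood there at the authors' p = 0.00331, while a Stag2 promoter peak passed at p = 0.00343. Not passing at such peaks is not read as a lack of difference. Values per mouse were not used, so the error of a change is the standard error implied by that change and its p-value.

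After PPx the Pttg1 promoter was several times more accessible in βKO than in control islets. Its log2 level was 4.38 in βKO and 2.20 in control islets, or 20.8 and 4.59 normalised reads. The log2 change was 2.18 with an implied standard error of 0.45 (FDR 0.00701, the authors' deposited table). The peak was called, that is, found by the authors' peak caller, in 4 of 4 βKO and 0 of 4 control libraries. This change ranked 6 from the highest of 13111 peaks and 4 from the highest of 8050 promoter peaks. An FDR under 0.05 with a higher value in βKO was given to 9.88% of peaks, and under 0.01 to 0.0229%, while 0.0839% had an FDR under 0.05 with a lower value. With these values behind the choice of the genes, nothing is read from the shares.

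In control islets the Pttg1 promoter read 2.25 after PPx and 3.75 before, or 4.76 and 13.5 normalised reads. The log2 change was -1.51 ± 0.48 (implied standard error), and the level before PPx was thus 2.85-fold that after PPx. The authors' deposited table gave p = 0.00152 and an FDR of 0.999, in a comparison where no peak passed, while 196 were higher and 8 lower after PPx at an unadjusted p under 0.05. Calls were made in 0 of 4 libraries after PPx and 3 of 4 before.

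The comparisons that did not choose the genes, though they share libraries with those that did, gave smaller differences at the Pttg1 promoter. Before PPx it read 3.70 in βKO and 3.93 in control islets, a log2 change of -0.24 ± 0.46 (implied standard error, p = 0.606 and FDR 1, the authors' deposited table). It was called in 3 of 3 βKO and 3 of 4 control libraries. In βKO islets it read 4.38 after PPx and 3.47 before, a change of 0.91 ± 0.46 (p = 0.0491 and FDR 0.111, the authors' deposited table), which did not pass. Calls were made in 4 of 4 libraries after PPx and 3 of 3 before. This change stood 0.08 above the median of its table, with 58.5% of peaks lower, and 7.44% of its peaks passed as higher after PPx at an FDR under 0.05, 0.0392% at an FDR under 0.01. An unadjusted p under 0.05 with a higher value was reached by 39.4% of them.

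Rfxap followed the same order at a higher level. After PPx its promoter read 4.89 in βKO and 3.30 in control islets, or 29.7 and 9.85 normalised reads, a log2 change of 1.60 ± 0.35 (implied standard error, FDR 0.0118, the authors' deposited table). It was called in 4 of 4 βKO and 0 of 4 control libraries. The change ranked 60 from the highest of 13111 peaks, but only 3 peaks had a smaller p. In control islets the promoter read 3.35 after PPx and 4.38 before, or 10.2 and 20.8 normalised reads, a change of -1.03 ± 0.36 (p = 0.00388 and FDR 0.999, the authors' deposited table). Calls were made in 0 of 4 control libraries after PPx and 4 of 4 before.

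Before PPx the Rfxap promoter stood at nearly the same level in both genotypes. It read 4.47 in βKO and 4.49 in control islets, a log2 change of -0.02 ± 0.38 (implied standard error, FDR 1, the authors' deposited table). It was called in 3 of 3 βKO and 4 of 4 control libraries. In βKO islets it read 4.89 after PPx and 4.24 before, a change of 0.65 ± 0.35 (p = 0.0648 and FDR 0.128, the authors' deposited table). This did not pass, and it lay 0.18 below the median change of its table, with 30.4% of peaks lower.

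**Figure D1:**
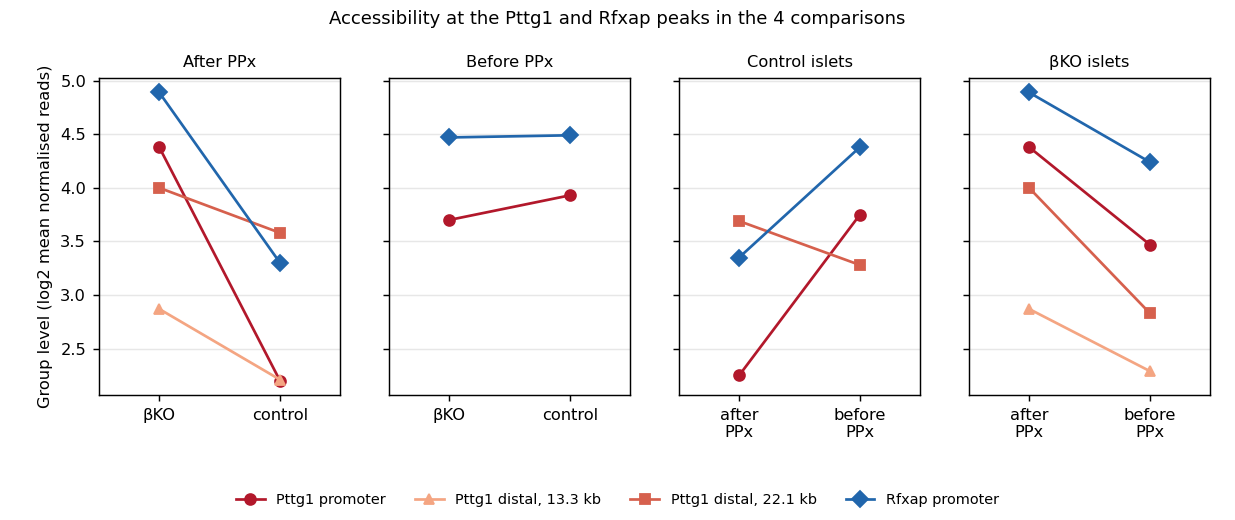
Group levels (log2 mean normalised reads, the authors' values) of the 4 peaks, one panel for each deposited comparison, with lines joining the groups compared. Both promoters stood at 2.20 and 3.30 in control islets after PPx, below their levels in the other groups, while the far distal Pttg1 peak (squares) was higher after PPx than before in control islets.

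The genotype gap after PPx can be divided into the gap before PPx, plus the change in βKO islets, minus the change in control islets. For Pttg1 as deposited, the fall of 1.51 in control islets came to 69.3% of the gap of 2.18, the change of 0.91 in βKO islets to 41.7%, and the gap before PPx of -0.24 to -11.0%. For Rfxap the fall of 1.03 in control islets came to 64.4% of the gap of 1.60, the change of 0.65 in βKO islets to 40.6% and the gap before PPx of -0.02 to -1.25%. Remainders of 0.00 for Pttg1 and -0.06 for Rfxap were left. All 4 comparisons share groups with one another, so the parts are not independent.

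Relative to the median change of each table, the division shifted further to control islets. The Pttg1 gap after PPx was then 1.57, made of a change of -1.67 in control islets, 0.08 in βKO islets and -0.24 before PPx. The Rfxap gap was 0.99, made of -1.19 in control islets, -0.18 in βKO islets and -0.02 before PPx. The direction of the Rfxap change in βKO islets thus depended on the scale, since it was 0.65 as deposited. The fall in control islets lay between 1.51 and 1.73 for Pttg1 and between 1.03 and 1.19 for Rfxap on the 5 scales computed.

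**Figure D2:**
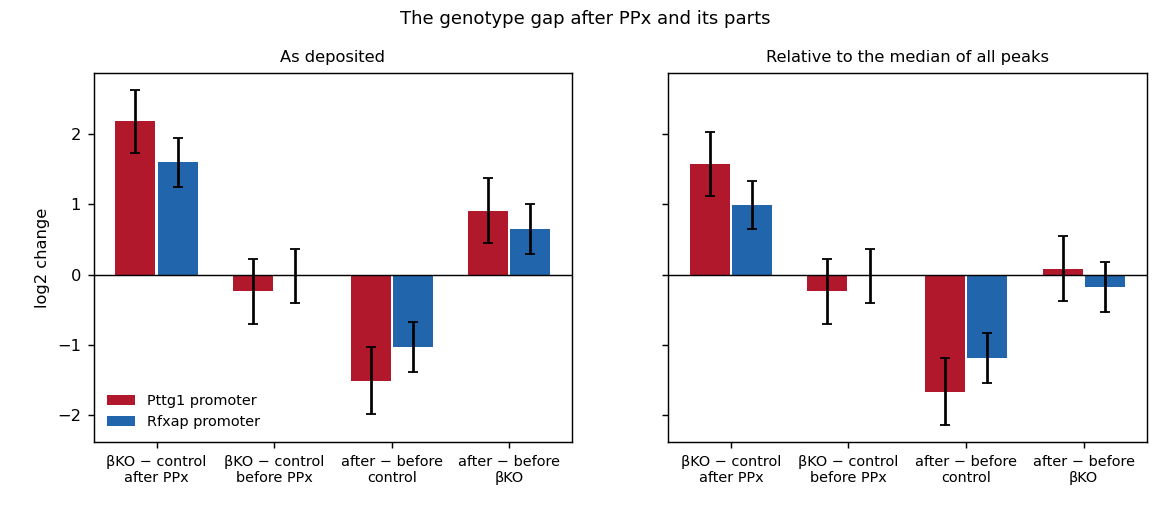
The log2 change in each comparison for the Pttg1 and Rfxap promoters, as deposited (left) and relative to the median of all peaks of the table (right), with bars of 1 implied standard error. The change in βKO islets shrinks from 0.91 to 0.08 at Pttg1 and from 0.65 to -0.18 at Rfxap once the median is taken off, while the fall in control islets does not.

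The 3 Pttg1 peaks are set side by side as a description in the comparisons that chose the gene. After PPx the near distal peak read 2.87 in βKO and 2.21 in control islets, a log2 change of 0.66 ± 0.59 (implied standard error, FDR 1, the authors' deposited table). It was called in 2 of 4 βKO and 0 of 4 control libraries. The far distal peak read 4.00 in βKO and 3.58 in control islets, a change of 0.42 ± 0.40 (FDR 0.377, the authors' deposited table), with calls in 2 of 4 βKO and 1 of 4 control libraries. Both changes were near or under the median of 0.61. In that comparison the promoter exceeded the near distal peak by 1.52 ± 0.74 and the far distal peak by 1.76 ± 0.61 (combined implied standard errors).

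In control islets the level of the far distal peak was not lower after PPx, and its change was within 1 implied standard error. It read 3.69 after PPx and 3.28 before, a log2 change of 0.41 ± 0.45 (implied standard error, FDR 0.999, the authors' deposited table), and was called in 1 of 4 libraries at each time. The promoter's change minus this one was -1.92 ± 0.65. In βKO islets, whose comparison did not choose the genes, the peaks were closer. The far distal peak read 4.00 after PPx and 2.83 before, a change of 1.17 ± 0.54 (FDR 0.0886, the authors' deposited table). The near one read 2.87 after PPx and 2.29 before, a change of 0.57 ± 0.68 at an FDR of 1 in that table. The promoter differed from the far distal peak by -0.26 ± 0.71 and from the near one by 0.34 ± 0.82. Neither distal peak was listed in the comparison of genotypes before PPx, and the near one was not listed for control islets. The peaks share libraries and are not replicates of one another.

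Among all peaks of control islets, few fell as far as these promoters. The genes were chosen partly by this fall, so their ranks here are a description. The Pttg1 fall was reached by 5 of 8070 peaks (0.062%), itself included, and the Rfxap fall by 16 (0.198%). Of 2395 peaks whose control level before PPx was within 0.25 of that of the Pttg1 promoter, none had a lower level after PPx, and the median of these was 3.87 against 2.25 for Pttg1. The same held for Rfxap among 1501 peaks, whose median after PPx was 4.50 against 3.35 for Rfxap. At an unadjusted p under 0.05, 8 peaks (0.0991%) were lower after PPx in the authors' deposited table, and Pttg1 and Rfxap had the smallest p-values of these.

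Most other peaks that lost their calls lost less of their level. Pttg1 and Rfxap were chosen by their values in the comparisons used here, so their ranks are a description. In control islets, 41 of 8070 peaks (0.508%) were called in at least 3 of 4 libraries before PPx and in 0 of 4 after, and 4 peaks (0.0496%) in 4 of 4 before and 0 of 4 after, Rfxap among them. The median log2 change of the 41 was -0.37, and 16 changed by less than 0.3. Pttg1 and Rfxap had the largest falls of them, ahead of Prkar2b, a protein kinase A subunit gene named after its values were seen, at -0.91 (the authors' deposited table). Rfx3, a gene of the RFX family chosen likewise, was called in 0 of 4 control libraries after PPx and 3 of 4 before, yet read 3.08 after and 3.01 before. Between genotypes after PPx, 222 of 13111 peaks (1.69%) were called in 4 of 4 βKO and 0 of 4 control libraries, with a median change of 0.97. Within those, Pttg1 had the largest change and Rfxap ranked 6.

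The peaks with the largest falls in control islets, predicted genes left out, were at Fmn1, Pttg1, Jak2, Mterf1a and Mogat1. Most of them rested on very low levels. Fmn1, which encodes the actin nucleator formin 1, read -0.21 after PPx and 1.48 before, Mterf1a, a mitochondrial transcription factor gene, -0.21 and 0.94, and Mogat1, an acylglycerol acyltransferase gene, 0.11 and 1.24, in the authors' deposited table. The promoter of Jak2, the kinase of cytokine receptors, read 1.95 after PPx and 3.31 before (p = 0.0132 and FDR 0.999, the authors' deposited table). That peak lay at chr19:29251382-29251982. Between genotypes after PPx the Jak2 promoter peak lay at chr19:29251000-29251600, which overlaps it only in part. There it read 3.43 in βKO and 2.48 in control islets (FDR 1, the authors' deposited table).

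Both time changes were set side by side at the 6808 peaks found in all 4 tables. The change in βKO islets minus that in control islets was 2.42 ± 0.66 (combined implied standard errors) for Pttg1 and 1.68 ± 0.50 for Rfxap. Its median over these peaks was 0.65, with quartiles of 0.37 and 0.93, and the promoters ranked 10 and 105 from the highest. A lower level in control and a higher one in βKO islets after PPx was seen at 25.6% of these peaks, so the pattern of signs alone was common.

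**Figure D3:**
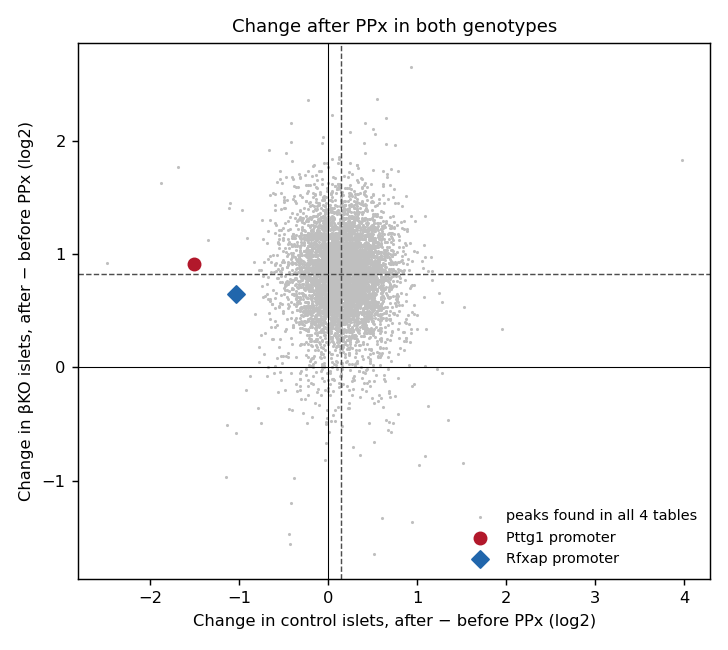
Log2 change from before to after PPx in control islets (horizontal) and βKO islets (vertical) at the 6808 peaks found in all 4 tables, with dashed lines at the medians. Pttg1 (-1.51 and 0.91) and Rfxap (-1.03 and 0.65) lie at the left edge of the cloud and near its middle in height.

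Likeness to each promoter was measured as the Euclidean distance over the 4 log2 changes, predicted genes left out. The closest of the 6808 peaks to the Pttg1 promoter was that of Rfxap, at a distance of 0.83, where the median peak was at 2.32. The next were the promoter of Hacd1, a fatty acid elongation enzyme gene, an intron peak of the ubiquitin ligase gene Marchf4, and the promoters of Slc22a23 and Khdc4, at distances between 0.97 and 1.15. Their changes in control islets lay between -0.74 and -0.65, and those in βKO islets between 0.93 and 1.30. Their genotype gaps after PPx were 1.64, 1.64, 1.67 and 1.53 (FDR 0.0212 for each, the authors' deposited table). None fell as far in control islets as Pttg1 or Rfxap.

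Closest to the Rfxap promoter were those of Slc22a23 and Dlc1, both at 0.48. A distal peak of Csrp1, the promoter of the nucleophosmin gene Npm1 and that of the myosin gene Myo5a followed at 0.56, 0.56 and 0.60, where the median peak was at 1.61. In control islets these 5 peaks changed by -0.72, -0.67, -0.73, -0.54 and -0.75 (the authors' deposited table). Their gaps after PPx were 1.67, 1.33, 1.15, 1.48 and 1.12, and all but Csrp1, with an FDR of 0.0578, passed in that table. The distances carry no test, since the same 4 changes chose the peaks.

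No neighbouring peak listed for control islets fell as far as the promoters did, a difference given here without a test. Slu7, a splicing factor gene, had the promoter peak closest to that of Pttg1, at 7.50 kb. It read 4.28 in βKO and 3.18 in control islets after PPx, a change of 1.10 (FDR 0.0511, the authors' deposited table), and 0.08 before PPx. It was called in 3 of 4 βKO and 0 of 4 control libraries after PPx. Neither it nor a distal peak of Gm12152 at 227 kb was listed in the comparison of control islets, so their changes there are unknown. The distal and promoter peaks of Gm12148, at 33.2 and 40.9 kb, changed by -0.01 and 0.65 in control islets, and the Pwwp2a promoter at 256 kb by 0.19. Ttc1, a cochaperone gene at 322 kb, was the only one of the 6 nearest with an FDR under 0.05 between genotypes after PPx, with a change of 1.09 (the authors' deposited table). Its promoter read 3.90 after PPx and 4.23 before in control islets, a change of -0.33 ± 0.34.

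Around Rfxap only the Exosc8 promoter and a distal peak of Spg20 were listed for control islets, and neither fell as far as the Rfxap promoter. The changes of the remaining neighbours there, the nearest included, are unknown. A peak of Smad9, a BMP signal transducer gene, lay 10.4 kb away and read 2.90 in βKO and 2.53 in control islets after PPx (FDR 1, the authors' deposited table). The shared promoter region of Exosc8 and Alg5, at 72.6 kb, read 4.38 in βKO and 3.35 in control islets, a change of 1.03 at an FDR of 0.0522 in that table. It was called in 3 of 4 βKO and 0 of 4 control libraries after PPx. In control islets it read 3.43 after PPx and 3.73 before, a change of -0.31 ± 0.40. The distal Spg20 peak read 3.58 after PPx and 3.42 before in control islets. Other neighbours, at Sertm1, Spg20 and Dclk1, had genotype gaps from -0.07 to 1.31 after PPx, with an FDR of 0.199 or more.

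**Figure D4:**
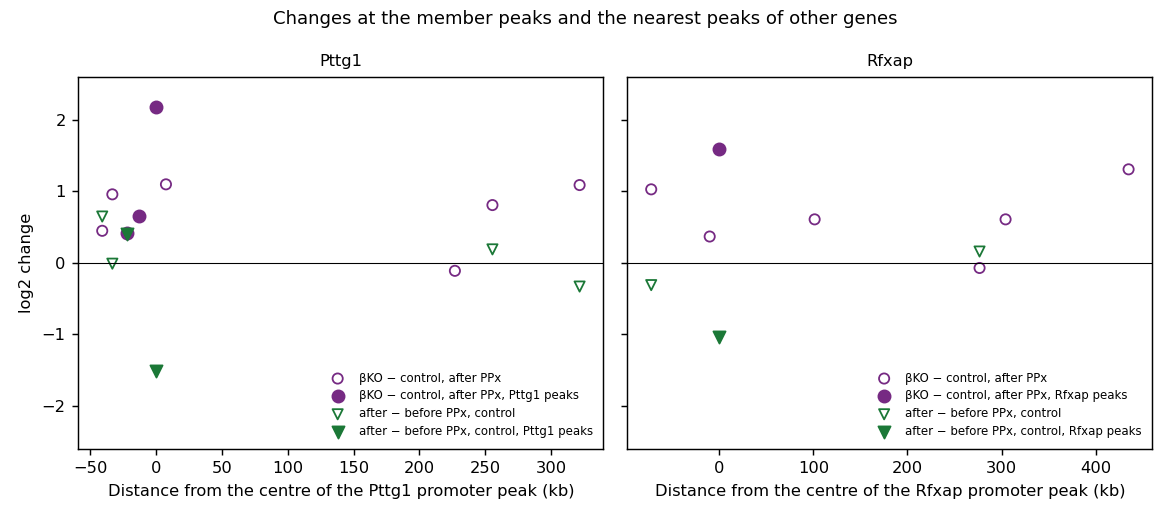
Log2 changes at the member peaks (filled) and at the 6 nearest peaks of other genes (open) against distance from the promoter peak, for βKO minus control after PPx (circles) and for control after minus before PPx (triangles). At distance 0 the promoters reach 2.18 and -1.51 at Pttg1 and 1.60 and -1.03 at Rfxap, while no open triangle lies under -0.33. Several neighbours, the nearest to each promoter included, were not listed for control islets.

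After PPx some genes that act with securin on cohesin were higher in βKO than in control islets, and none of the list passed as lower in any comparison. Of 18 such genes 14 had a peak after PPx, and 3 passed as higher in βKO than in control islets and 11 did not. Of all peaks, 9.88% passed as higher. Here and in the lists below, counts are of genes and shares are of peaks, so they are not of like unit. A gene with several peaks has more chances to pass. The median log2 change of the 18 peaks of the cohesin list was 0.78, beside 0.61 for all peaks. Of these, 16 were promoter peaks with a median of 0.78, beside 0.71 for all promoter peaks. The promoter of Stag1, a cohesin subunit gene, read 5.05 in βKO and 4.05 in control islets. A promoter peak of Stag2, its paralogue, read 4.09 in βKO and 2.71 in control islets, and the promoter of Wapl, which releases cohesin from chromatin, 5.99 in βKO and 5.07 in control islets (FDR of 0.0422, 0.0396 and 0.0469 in the authors' deposited table). The Stag2 peak that passed was called in 1 of 4 libraries of each genotype. A second Stag2 promoter peak read 4.40 in βKO and 3.58 in control islets and did not pass, at an FDR of 0.0887. The smallest change was that of the acetyltransferase gene Esco2 at 0.23. The largest was that of a weak promoter peak of Pttg1ip, the securin-interacting protein gene, at 1.43 (p = 0.0308 and FDR 1, the authors' deposited table). Separase itself, Espl1, had no listed peak.

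In control islets the 14 listed peaks of these genes had a median log2 change of -0.005 (all peaks 0.16), none passed, and 7 were lower and 6 higher after PPx. The lowest was the promoter of Smc3, a core cohesin subunit gene, which read 3.74 after PPx and 4.35 before (FDR 0.999, the authors' deposited table), with calls in 1 of 4 and 4 of 4 libraries. The highest was Smc1a, its partner, which read 4.19 after PPx and 3.70 before. In βKO islets 4 of 14 genes passed as higher after PPx, Smc1a, Mau2, Esco1 and Stag1, at 1.62, 1.37, 1.17 and 1.14 on the log2 scale (the authors' deposited table), where 7.44% of all peaks passed as higher. Relative to the median of all peaks, the median change of the list was -0.005 there.

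The machinery that marks securin for destruction gave a like picture. Of 26 genes of the anaphase-promoting complex and the spindle checkpoint, 13 had a peak after PPx, 2 passed as higher in βKO than in control islets and none as lower, where 9.88% of all peaks passed as higher. The passing promoters were those of Cdc16, read at 4.15 in βKO and 2.71 in control islets, and Anapc13, read at 4.14 in βKO and 3.05 in control islets, both subunits of the complex, with an FDR of 0.0268 and 0.0471 (the authors' deposited table). The median of the 13 peaks, all at promoters, was 0.71, the same as that of all promoter peaks. Fzr1, a coactivator gene of the complex, had the smallest change at 0.06. In control islets the median of 9 peaks was 0.10, and Anapc13 was lowest, read at 3.10 after PPx and 3.60 before. In βKO islets Cdc16, Anapc15 and Cdc26 passed as higher after PPx, at 1.49, 1.10 and 1.37 (the authors' deposited table), where 7.44% of all peaks did. The promoter of Cdc20, the coactivator that directs the complex to securin, read 3.49 in βKO and 2.75 in control islets after PPx (FDR 1, the authors' deposited table).

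The partners of Rfxap in the RFX complex read slightly higher in control islets after PPx than before, as did most peaks, and did not pass. The Rfx5 promoter read 4.64 after PPx and 4.43 before in control islets, and that of Rfxank 4.26 after PPx and 3.98 before (FDR 0.999 for both, the authors' deposited table). After PPx, Rfx5 read 5.65 in βKO and 4.58 in control islets (FDR 0.0425 in the authors' deposited table). Rfxank read 4.38 in βKO and 4.04 in control islets, at an FDR of 0.441 in that table. Of 16 genes of the RFX complex, its cofactors and MHC class II, 7 had a peak after PPx and 2 passed as higher in βKO islets, Rfx5 and Creb1, the cAMP-responsive factor gene, at 1.06 and 1.11, where 9.88% of all peaks passed as higher. The median change of the 10 peaks was 0.70, and that of the 9 promoter peaks among them 0.66, beside 0.71 for all promoter peaks. All 6 peaks listed for control islets were higher after PPx, from 0.09 to 0.81, though none passed. Of all peaks of control islets, 72.8% were higher after PPx, and the median change was 0.16. In βKO islets over time Rfx5 and Creb1 passed as well, at 1.40 and, for the Creb1 promoter, 1.11 in the authors' deposited table, where 7.44% of all peaks did.

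Class II genes themselves were scarcely represented in these islets. The H2-DMa promoter read 4.33 in βKO and 3.43 in control islets after PPx (FDR 0.0777), and H2-Ab1 3.03 in βKO and 2.66 in control islets (FDR 1, the authors' deposited table). No peak was listed for Ciita. Of 7 other RFX family genes 5 had a peak after PPx. The promoters of Rfx2 and of Rfx6, a factor of the islet lineage, passed as higher in βKO islets, by 0.96 and 1.01 (the authors' deposited table). Of all peaks in that comparison, 9.88% passed as higher. An intron peak of Rfx4 had the smallest change, at -0.21, and the median of the 8 peaks was 0.60, beside 0.61 for all peaks. In control islets the Rfx6 promoter read 4.08 after PPx and 4.05 before, and an Rfx6 intron peak, the lowest change of the list, 3.90 after PPx and 4.18 before. Before PPx none of the 4 lists had a gene past the FDR between βKO and control islets, where 0.0128% of peaks passed as higher, and their medians lay between -0.14 and 0.05.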

How the data were processed

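Each of the 4 deposited tables gives, per the file headers, log2 concentrations (log2 of mean normalised reads) of 2 groups, a log2 fold with its p-value and FDR, and the number of libraries in which each peak was called. Tools listed in the submitters' processing notes are ChIPseeker, DiffBind, MACS, BWA and cutadapt, on mm10 (GRCm38). Their versions, the normalization and whether reads were shifted for Tn5 are not given in these sources. No values per library were used, so the depth of each is unknown, none could be left out, and spread between mice enters through the authors' p-values alone. Labels do not say whether libraries shared a batch.

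Repeated rows of a peak were counted once. The authors' fold was turned round to read βKO minus control and after minus before, and equals the difference of group levels within 0.01. A peak passes at an FDR under 0.05. Implied standard errors are the change divided by the normal deviate of its p-value. Where p was 0.5 or more or the change under 0.1, they are the median of peaks of like concentration (20 bins). Errors and adjustment were run on data simulated under the same normal model, which checks the code and not the normal approximation. Peaks of different tables were matched by an overlap of at least 1 bp. Genes named are the members, the 6 nearest peaks within 500 kb, the 5 most alike, the 5 largest falls in control, and, per list, those that passed and the extremes; Cdc20, H2-Ab1, Espl1, Ciita, Rfx3, Prkar2b and Cdc37l1 were added after their values were seen. Members and lists were chosen with earlier results of these data known. Alternatives were other centrings, levels from other tables, other thresholds, promoter peaks alone and a stricter overlap. Promoter sequence is from RefSeq, where 1 of the 2 genes was matched. Python 3.11.15, pandas 2.3.3, numpy 2.4.6 and scipy 1.17.1 were used.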

Additional observations from a re-analysis of the deposited data

How the results depend on the processing

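Of 115 alternative values, 92 stayed within 1 implied standard error, or within 1.5 times a count, and 23 moved. Some of the 92 could not move. Taking 1 median off both Pttg1 peaks leaves their difference unchanged, and the stricter overlap matched the same member peaks. The count is thus no measure of stability. Relative to the median of all peaks, of promoter peaks and of peaks of like concentration, the gap after PPx was 1.57, 1.47 and 1.67 at Pttg1 and 0.99, 0.89 and 0.98 at Rfxap. The change in βKO islets was then 0.08, 0.05 and 0.05 at Pttg1 and -0.18, -0.21 and -0.21 at Rfxap. These shifts follow from the general gain in βKO islets after PPx, which the centring takes off. At an FDR under 0.01 only 1 of the member peaks passed between genotypes after PPx, the Pttg1 promoter, and at an FDR under 0.1 1 passed in βKO islets over time, the far distal Pttg1 peak. Centred on all peaks, the medians of the securin and cohesin, APC/C, RFX complex and other RFX lists were 0.17, 0.10, 0.09 and -0.01 between genotypes after PPx, and -0.005, 0.08, 0.24 and 0.06 in βKO islets over time. With promoter peaks alone, 0 genes of the other RFX list passed in βKO islets over time. No paired analysis was possible because the tables hold groups and the sample numbers are not shared between groups. Leaving out a library was not run for the same reason. At levels of about 5 normalised reads, as at the Pttg1 promoter in control islets after PPx, precision is low.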

Other observations

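A pair of neighbouring promoters on chromosome 19, Jak2 and Cdc37l1, a gene related to the Hsp90 cochaperone Cdc37, lay 261 kb apart with 1 other listed peak between them, and both were among the 8 peaks lower in control islets after PPx at an unadjusted p under 0.05. Cdc37l1 was chosen after its values were seen. Its promoter read 2.33 after PPx and 3.44 before in control islets (p = 0.0399 and FDR 0.999, the authors' deposited table), and 3.64 after PPx and 2.23 before in βKO islets, at an FDR of 0.0678. After PPx it read 3.64 in βKO and 2.13 in control islets, at an FDR of 1 though the authors' p was 0.00331. Both promoters also read lower in βKO than in control islets before PPx, Jak2 at 2.81 in βKO and 3.49 in control islets and Cdc37l1 at 2.46 in βKO and 3.62 in control islets (FDR 1 for each, the authors' deposited table).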
